A study of Homo sapiens with 24 samples.

Results

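The MYC, MAX and MXD network is a family of transcription factors that share one dimer partner. It was followed here through 10 genes chosen by name: MYC and MYCL, the partner MAX, the antagonists MXD1, MXI1, MXD3, MXD4 and MNT, and MLX with MLXIP. All 10 were found among the 60366 entries of the count table, and all 10 had enough counts to be tested in every comparison. RNA was read as gene counts from stranded poly(A) libraries. The cells were those of 3 established human lines labelled as pancreatic adenocarcinoma, namely BXPC3, MIAPACA2 and PSN1. The submitters describe all 3 lines as deleted for MTAP, the enzyme that clears methylthioadenosine, while the genotype label reads WT, so vehicle and treated libraries share that deletion. Each line was given DMSO vehicle or AM-9747, an inhibitor of the arginine methyltransferase PRMT5 that acts together with methylthioadenosine, for 6 days. The dose was 100 nM in BXPC3 and PSN1 and 150 nM in MIAPACA2, so a response seen in MIAPACA2 belongs to the line and the dose together, and these cannot be told apart. Every one of the 6 groups had 4 libraries. The labels do not state that replicates were separate cultures, so each p-value measures only the spread between these libraries, which may be technical. In bulk RNA, fewer cells of a type and less RNA per cell cannot be told apart.

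MYC and its relatives bind DNA as heterodimers with MAX, typically at the E-box CACGTG, and raise transcription of genes for ribosome production, metabolism and cell division. The MXD proteins and MNT bind MAX in place of MYC and bring SIN3 and histone deacetylases to such sites, so the balance of activators and antagonists is the quantity usually considered. MLX is the matching partner of MLXIP (MondoA) and MLXIPL (ChREBP), which respond to glucose metabolites, and it can also pair with some MXD proteins and MNT. In pancreatic carcinoma MYC is known to be amplified in some tumours.

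In GRCh38 with GENCODE 29, MYC (ENSG00000136997) lies on chromosome 8 from 127735434 to 127741434, plus strand, and MYCL (ENSG00000116990) on chromosome 1 from 39895426 to 39902256, minus strand. MAX (ENSG00000125952) lies on chromosome 14 from 65006174 to 65102695, minus strand. The antagonists are spread over 5 chromosomes: MXD1 (ENSG00000059728, chromosome 2, 69897688 to 69942945, plus), MXI1 (ENSG00000119950, chromosome 10, 110207605 to 110287365, plus), MXD3 (ENSG00000213347, chromosome 5, 177301461 to 177312757, minus), MXD4 (ENSG00000123933, chromosome 4, 2247432 to 2262294, minus) and MNT (ENSG00000070444, chromosome 17, 2384060 to 2401118, minus). MLX (ENSG00000108788) is also on chromosome 17, from 42567068 to 42573239, plus strand, and MLXIP (ENSG00000175727) is on chromosome 12 from 122078722 to 122147347, plus strand. The counts are per gene, so exons, introns and isoforms are not separated. Exons of some members overlap other genes: MLX shares 770 exon bases with PSMC3IP on the opposite strand, MNT 1065 with AC006435.1 on the opposite strand, and MXD3 926 with RAB24 on its own strand and 1158 with PRELID1 on the other. MXD1 shares 237 bases with SNRNP27 on the same strand, MYCL 226 with AL033527.2, MXI1 205 with AL360182.2 and MAX 184 with AL139022.1, these last opposite. Whether the counting used strand is not given in the sources used here, so values of MXD3, MLX and MNT in particular may hold reads of those neighbours.

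Library totals lay between 22.4 M and 45.6 M counts, so sampling of reads adds little error for genes above a few CPM (counts scaled to a common library total with TMM factors). The share of counts on mitochondrial genes was 7.26 ± 1.15% in BXPC3 vehicle and 7.33 ± 2.6% with AM-9747 (SD, n = 4), 13.57 ± 6.3% and 13.57 ± 4.3% in MIAPACA2, and 33.06 ± 11.27% and 19.99 ± 10.78% in PSN1. The share was highest and varied most in PSN1. Of 6 epithelial markers, 6 were at 1 CPM or more in BXPC3, 3 in MIAPACA2, where EPCAM (0.0431 CPM in vehicle), CDH1 (0.13) and KRT7 (0.0964) were near 0, and 5 in PSN1 vehicle. Summed fibroblast markers ran from 26.9 to 30.8 CPM in BXPC3 vehicle and from 43.9 to 54.5 with AM-9747, and from 42.1 to 62.3 and from 148 to 179 CPM in PSN1, led by COL3A1. They stayed at or under 4.1 CPM in MIAPACA2, where COL3A1 and DCN had no count in vehicle. Summed leukocyte markers ran from 35.0 to 39.7 CPM in BXPC3 vehicle and from 7.56 to 24.1 with AM-9747, mostly CD68. In PSN1 they ran from 17.7 to 56.7 and from 19.7 to 69.9 CPM, led by CD14, and in MIAPACA2 they stayed at or under 23.5. The mean of PTPRC was at or under 0.163 CPM in every group. Summed endothelial markers ran from 15.6 to 20.5 and from 29.5 to 34.3 CPM in BXPC3, led by CDH5. In PSN1 they ran from 30.1 to 39.2 and from 16.8 to 25.8 CPM, led by PECAM1, and in MIAPACA2 they stayed at or under 0.619. The part of these marker genes in the responses was not tested.

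The E-box is the sequence this network reads, so the proximal promoters of the members themselves were searched for it (CACGTG, which reads the same on both strands). RefSeq windows (GRCh38.p14) from 250 bases before to 50 bases after a start were used. The window of MYC was not used here, and the other 9 members had 12 windows. The box was in 3 of these, those of MXD4, MNT and MLX, and in 2548 of all 35116 windows searched, or 7.26%. The 250 bases before the start are shown for these 3 because they carry the network's own motif, 5′ to 3′ on the strand of the gene, with the box in capitals. The box begins 238 bases before the start in MXD4 (chr4:2262110-2262359, minus strand), 193 in MNT (chr17:2401061-2401310, minus) and 50 in MLX (chr17:42566850-42567099, plus). A match is a description of the letters and not of binding.
MXD4: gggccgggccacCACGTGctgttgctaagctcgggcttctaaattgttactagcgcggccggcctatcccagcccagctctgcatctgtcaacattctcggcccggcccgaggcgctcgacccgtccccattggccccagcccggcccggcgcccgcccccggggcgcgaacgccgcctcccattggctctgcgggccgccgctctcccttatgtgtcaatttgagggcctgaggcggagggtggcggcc
MNT: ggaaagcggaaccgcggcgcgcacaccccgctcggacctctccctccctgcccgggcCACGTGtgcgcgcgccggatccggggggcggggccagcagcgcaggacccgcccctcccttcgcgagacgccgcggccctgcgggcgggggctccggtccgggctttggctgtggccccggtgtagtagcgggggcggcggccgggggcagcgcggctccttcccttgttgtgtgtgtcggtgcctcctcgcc
MLX: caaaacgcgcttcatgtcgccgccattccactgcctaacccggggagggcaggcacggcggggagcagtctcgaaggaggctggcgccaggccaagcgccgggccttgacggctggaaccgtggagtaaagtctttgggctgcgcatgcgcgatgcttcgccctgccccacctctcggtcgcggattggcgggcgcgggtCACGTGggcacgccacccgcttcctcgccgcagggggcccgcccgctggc

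Under vehicle the lines differed in which members they used. MYC RNA was highest in PSN1, MYCL was found mainly in BXPC3, and MXD1, MXI1 and MLXIP were lowest in MIAPACA2. MXD3 and MXD4 were lowest in BXPC3. The scale of CPM per kilobase of exon allows genes to be compared only roughly. It divides by all annotated exons of a gene and not by the length of the transcript expressed. On that scale MYC had the highest level of the 10 in each line: 60.5 ± 4.04 in BXPC3, 47.3 ± 9.16 in MIAPACA2 and 119 ± 18.7 in PSN1 (SD, n = 4). MAX was at 12.1 ± 0.684, 7.79 ± 0.208 and 11.2 ± 2.82 in the same order, so its RNA was several times lower than that of MYC in all lines. MLX stood at 10.2, 17.6 and 11 and MLXIP at 10.1, 3.53 and 7.45 per kilobase. Among the antagonists MXD1 led in BXPC3 at 7.92 per kilobase, while MXD4 led in MIAPACA2 at 7.65 and in PSN1 at 6.6.

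**Figure D1:**
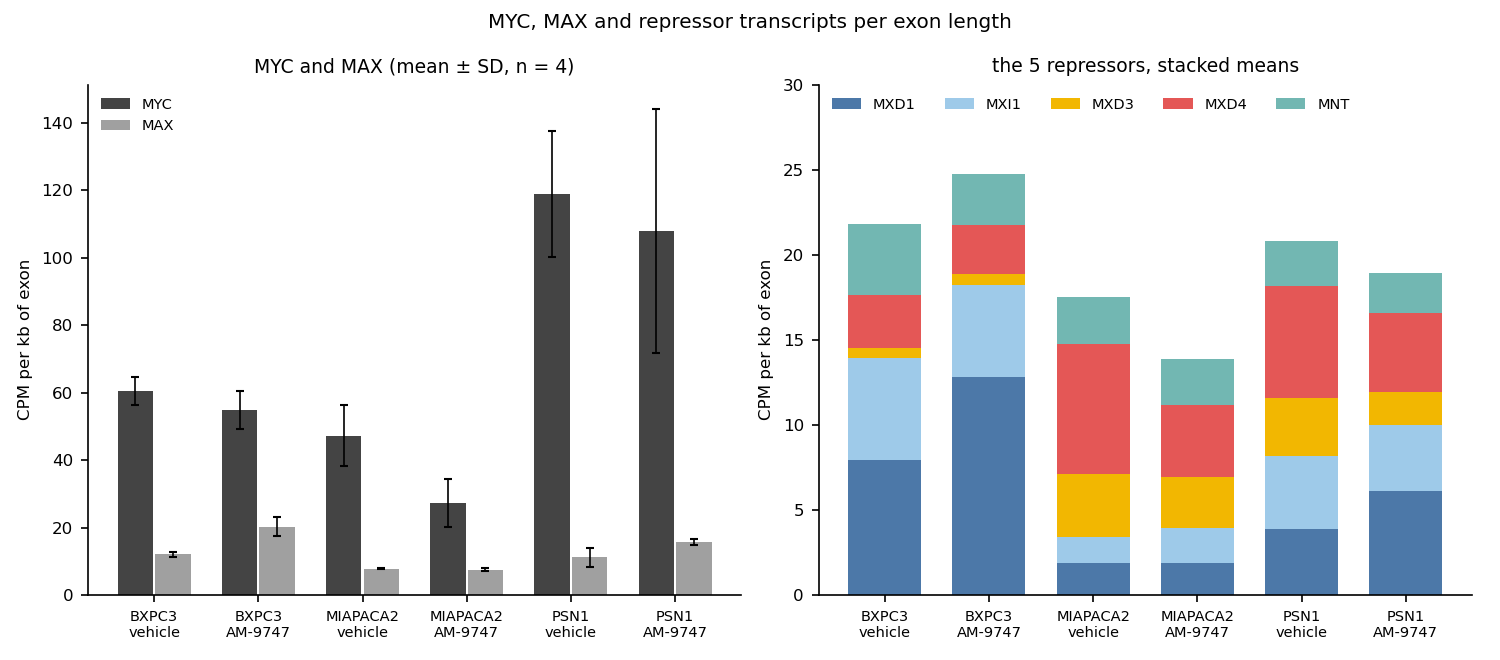
CPM per kilobase of exon in the 6 groups (linear axes), with MYC and MAX as means with SD (n = 4) on the left and the means of the 5 antagonists stacked on the right. MYC stands above MAX in every group, and the tallest antagonist segment is MXD1 in BXPC3 and MXD4 in MIAPACA2 and in PSN1 vehicle.

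The vehicle groups were compared by pairs in the joint edgeR quasi-likelihood fit of 22883 genes, where a call means an adjusted p under 0.05. MIAPACA2 differed from BXPC3 in 9 of 10 members, 3 higher and 6 lower, against 50.3% of all genes called (24% higher and 26.3% lower). PSN1 differed from BXPC3 in 8, 3 higher and 5 lower, against 62.4% (30.7% and 31.7%). DESeq2, median-of-ratio factors and no filter each called 6 there, 3 higher and 3 lower, without MLXIP and MXI1, the 5 CPM filter called 6, 4 higher and 2 lower, and the mitochondrial covariate 5, 2 higher and 3 lower. PSN1 differed from MIAPACA2 in 6, 5 higher and 1 lower, against 54.4% (27.1% and 27.3%). In the main fit these shares of members lie from near the background to well above it, and most genes of any kind differed between the lines. That background holds many genes of low count. With the 5 CPM filter, which all 10 members pass, 9, 6 and 6 members were called in the same order. Beside them stood 7421, 8874 and 8053 of 12058 genes, larger shares of all genes than in the main fit. The counts are therefore not read as a trait of the members.

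MYC, the main activator, was at 351, 399, 278 and 395 CPM in the PSN1 vehicle libraries, at 197, 175, 169 and 186 in BXPC3 and at 118, 160, 171 and 119 in MIAPACA2. Every PSN1 library was above every library of the other lines. The PSN1 level was 1.96-fold that of BXPC3 (log2 0.97 ± 0.21 SE, adjusted p = 0.000409) and 2.51-fold that of MIAPACA2 (1.33 ± 0.22, adjusted p = 1.48e-05), while MIAPACA2 against BXPC3 did not pass (−0.36, adjusted p = 0.167). PVT1, a noncoding RNA gene beside MYC that is often gained together with it, differed far more. It was at 169 to 233 CPM in PSN1, at 13.7 to 18 in BXPC3 and at 10.2 to 16.4 in MIAPACA2, 13.4-fold and 15.7-fold apart (adjusted p = 3.72e-13 and 1.21e-13). CASC11, on the other side of MYC, was at 47.8 to 92.7 CPM in PSN1 vehicle and had at most 9 counts in any library of the other lines. POU5F1B, a retrogene of POU5F1 near MYC that shares 848 exon bases with PCAT1, was at 4.04 to 14.5 CPM in PSN1 vehicle and had at most 29 counts elsewhere. MYC and these 3 neighbours thus had more RNA in every PSN1 vehicle library than in any vehicle library of the other lines, and the excess was larger for PVT1 than for MYC.

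MYCL, the relative of MYC first found in small cell lung cancer, was at 18.2, 18.3, 19.4 and 14.5 CPM in BXPC3 vehicle and at 0.998 to 1.44 in MIAPACA2, 14.6-fold lower (log2 −3.87 ± 0.55, adjusted p = 2.09e-06). In PSN1 vehicle it had 54, 0, 11 and 35 counts, so 1 library had none. MYCN, the neuronal relative, had at most 13 counts in any vehicle library. MYCL RNA was therefore found mainly in BXPC3, at 3.47 CPM per kilobase beside 60.5 for MYC.

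The antagonists separated the lines in opposite ways. MXD1, whose gene is induced as many cell types differentiate, was at 58.4, 58.8, 48.6 and 35.3 CPM in BXPC3, at 10.6 to 13 in MIAPACA2 and at 20.3 to 28.3 in PSN1, with no overlap between lines. MIAPACA2 was 4.23-fold below BXPC3 (adjusted p = 1.19e-09). MXI1 followed the same order and was 3.83-fold lower in MIAPACA2 than in BXPC3 (5.93 to 8.58 against 20.3 to 32.8 CPM, adjusted p = 5.53e-09). MXD4, the antagonist known from resting and differentiated cells, went the other way, at 19.9 to 25.1 CPM in BXPC3, 47.2 to 61.9 in MIAPACA2 and 39.9 to 52.2 in PSN1. It was 2.43-fold higher in MIAPACA2 and 2.1-fold higher in PSN1 than in BXPC3 (adjusted p = 1.53e-06 and 1.61e-05). MXD3, the member linked to proliferating cells in S phase, was at 1.53 to 4.59 CPM in BXPC3 and 6.28-fold higher in MIAPACA2 (13 to 27.7 CPM, adjusted p = 1.84e-05). In PSN1 it ran from 5.87 to 26.5 CPM, 5.83-fold above BXPC3 (log2 2.54, adjusted p = 2.52e-05). With the mitochondrial share as a covariate that difference was 0.61 and did not pass (adjusted p = 0.34). MNT, the broadly expressed antagonist, differed least: it was lower in MIAPACA2 (log2 −0.58, adjusted p = 0.0156) and PSN1 (−0.65, adjusted p = 0.00572) than in BXPC3. The MIAPACA2 call was lost with library totals (−0.42, adjusted p = 0.106) and without BXPC3 vehicle replicate 1 (−0.46, adjusted p = 0.0735), and the PSN1 call with the 5 CPM filter (−0.30, adjusted p = 0.155) and the mitochondrial covariate (−0.60, adjusted p = 0.123).

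Of the glucose-sensing arm, MLX was higher in MIAPACA2 (68.5 to 80.5 CPM) than in BXPC3 (41.2 to 48.6, 1.72-fold, adjusted p = 9.3e-05) and PSN1 (39.8 to 57.2, 1.6-fold, adjusted p = 0.000426). MLXIP ran against it, at 48.4 to 49.8 CPM in MIAPACA2 and 132 to 149 in BXPC3, a 2.86-fold difference (adjusted p = 3.11e-07). In PSN1 vehicle MLXIP ran from 62.8 to 133 CPM, overlapped BXPC3 and was called 2.11-fold above MIAPACA2 (adjusted p = 3.7e-05). MLXIPL, the other partner of MLX and the carbohydrate-responsive factor of liver, was at 1.72 to 2.64 CPM in BXPC3, 13.2 to 38.4 in MIAPACA2 and 63.8 to 170 in PSN1. PSN1 was 54.9-fold above BXPC3 (log2 5.78, adjusted p = 6.89e-11). Per kilobase of exon, MLXIP was at 10.1 and MLXIPL at 0.465 in BXPC3 vehicle, while MLXIPL stood above MLXIP in PSN1, at 25.6 ± 9.2 beside 7.45 ± 2.12 CPM. Before the division by exon length the PSN1 vehicle means were 123 CPM for MLXIPL and 104 for MLXIP, so most of that gap comes from the lengths used.

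**Figure D2:**
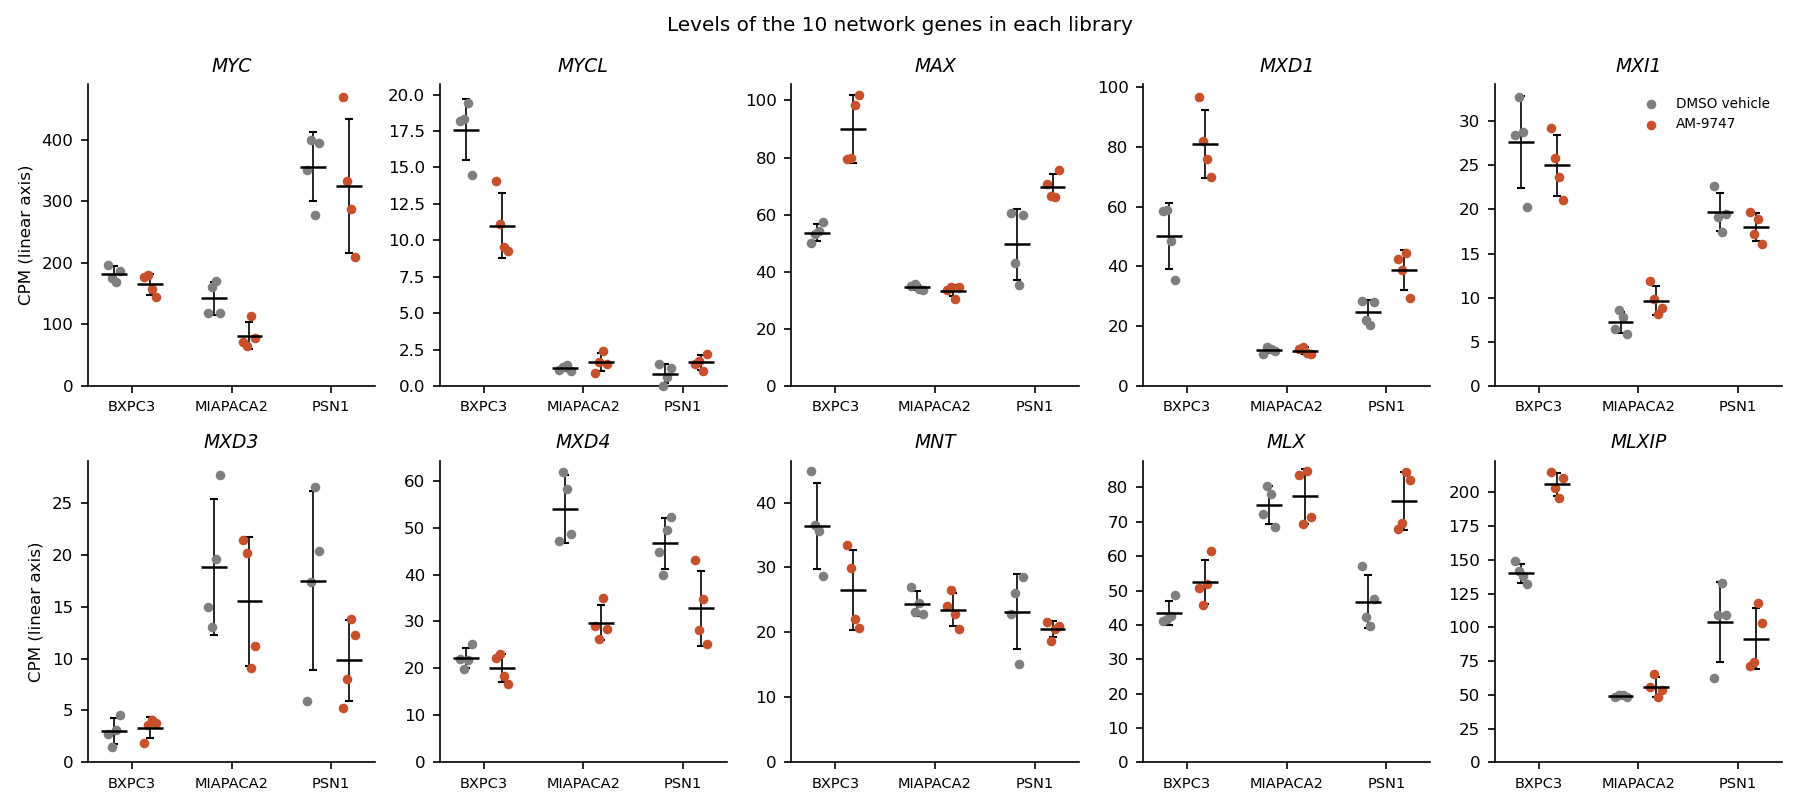
Level of each of the 10 genes (CPM, linear axes) in the 24 libraries, by line and treatment, with points for libraries and black lines for group means ± SD (n = 4). MYC is highest in PSN1, MYCL in BXPC3, and AM-9747 moves MAX, MXD1 and MLXIP upward in BXPC3 and MYC and MXD4 downward in MIAPACA2.

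With AM-9747, MAX, MXD1 and MLXIP rose and MYCL fell in BXPC3, MYC and MXD4 fell in MIAPACA2, and no member passed in PSN1. Each line was fitted alone, since the spread between replicates differed: edgeR's biological coefficient of variation was 26.6% for BXPC3, 32.1% for MIAPACA2 and 55.1% for PSN1. In BXPC3, 4 of 10 members were called, 3 higher and 1 lower, against 29.1% of 17638 genes (13.1% higher and 16% lower). In MIAPACA2, 2 were called, both lower, against 13.6% of 18090 genes (6.74% higher and 6.83% lower). In PSN1, 0 of 10 were called by edgeR (1 by DESeq2), against 10.7% of 18287 genes (4.51% higher and 6.18% lower). This PSN1 fit found 1.52% of 2-fold changes in simulated data with 200 changed genes. The real fit called 1955 genes and so had a less strict cut-off on raw p-values, and that rate may be too low for it. It called some changes under 2-fold, such as PVT1 at 1.69-fold. How often it misses changes of 2-fold is not known, so the lack of calls is not read as a lack of change. For the mean of the 3 responses in the joint fit, 5 members were called, 3 higher and 2 lower, against 23.2% of 22883 genes (12.5% higher and 10.7% lower). Calls went both up and down among the members, and their median changes of 0.01, 0.00 and −0.18 (log2) in BXPC3, MIAPACA2 and PSN1 sit beside 0.00, 0.00 and 0.04 over all genes. Below, it is said where treated and vehicle libraries of a gene did not overlap. The share of all genes without overlap was not counted, so lack of overlap without a call is not read as a response.

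MYC was at 197, 175, 169 and 186 CPM in BXPC3 vehicle and at 177, 180, 157 and 144 with AM-9747, and these groups overlapped (log2 −0.14 ± 0.11, adjusted p = 0.379). In MIAPACA2 it was at 118, 160, 171 and 119 in vehicle and 71.8, 64.8, 113 and 77.3 with AM-9747. Every treated MIAPACA2 library was below every vehicle library, and MYC fell 1.7-fold (−0.77 ± 0.19, adjusted p = 0.0249). In PSN1 the 4 vehicle values of 351, 399, 278 and 395 CPM were set against 469, 333, 288 and 210, so the treated libraries held both the highest and the lowest value of the line (−0.18 ± 0.26, adjusted p = 0.682). The mean response of MYC was −0.36 ± 0.12 (adjusted p = 0.0364), and a difference of the response between the lines was not called (F test, adjusted p = 0.182). The MIAPACA2 call was lost with library totals in place of TMM (−0.62, adjusted p = 0.0844) and without vehicle replicate 3 (adjusted p = 0.0735) or AM-9747 replicate 1 (0.0897), 2 (0.071) or 4 (0.0789), and the mean was lost with library totals (−0.19, adjusted p = 0.386) and without any of 13 of the 24 libraries (adjusted p up to 0.0739, log2 −0.36 to −0.31).

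In some groups the level of MYC went with the mitochondrial share. In MIAPACA2 AM-9747 the library with 113 CPM had a share of 7.23%, against 14.74 to 16.65% in the others, and the vehicle libraries at 160 and 171 CPM had 6.58 and 10.27%, against 16.96 and 20.48% for those at 118 and 119. In PSN1 AM-9747 the libraries in order of falling MYC, 469, 333, 288 and 210 CPM, had shares of 7.98, 14.07, 26.84 and 31.06%. In BXPC3 AM-9747 the order was nearly the same. Its replicates 1 to 4 had MYC at 58.96, 59.99, 52.38 and 48.02 CPM per kilobase, with shares of 4.34, 6.16, 8.66 and 10.18%. The vehicle groups of PSN1 and BXPC3 had no such order: in PSN1 vehicle the library with the highest MYC, 399 CPM, also had the highest share, 43.81%. With the share as a covariate, MYC in MIAPACA2 was at −0.78 ± 0.09 (adjusted p = 2.56e-06), the mean at −0.50 ± 0.10 (adjusted p = 0.000764) and PSN1 at −0.44 (adjusted p = 0.425). The MIAPACA2 estimate was thus about the same with this term as without it.

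The neighbours of MYC behaved differently from MYC in PSN1. CASC11 was at 47.8, 92.7, 54.5 and 85.5 CPM in vehicle and at 7.31, 8.9, 14.8 and 14.6 with AM-9747, a 6.38-fold fall (log2 −2.67 ± 0.35, adjusted p = 0.00226). PVT1 was at 169, 202, 233 and 205 CPM in vehicle and 111, 122, 135 and 128 with AM-9747, with no overlap (−0.75 ± 0.20, adjusted p = 0.0364). POU5F1B was at 4.04, 6.72, 14.5 and 6.42 CPM in vehicle and 1.59, 3.34, 2.97 and 1.76 with AM-9747 (−1.76 ± 0.49, adjusted p = 0.045). All 3 neighbours fell in PSN1 while MYC did not pass. The CASC11 fall held in every alternative and without each library in turn. The PVT1 call was lost with library totals (−0.41, adjusted p = 0.195), no filter (−0.72, adjusted p = 0.0976) and the mitochondrial covariate (−0.56, adjusted p = 0.0921) and without any 1 of 7 of the 8 libraries, all but vehicle replicate 1 (adjusted p 0.0677 to 0.127). The POU5F1B call was lost without the same 7 (adjusted p up to 0.127, log2 −1.95 to −1.26), with library totals (−1.37, adjusted p = 0.0928), with the covariate (−1.29, adjusted p = 0.238) and in the joint fit (−1.71, adjusted p = 0.0593).

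In the other lines PVT1 had higher treated means and did not pass: 14.2, 14.3, 13.7 and 18 CPM in BXPC3 vehicle and 15.6, 19.7, 23.4 and 26.1 with AM-9747 (log2 0.50 ± 0.18, adjusted p = 0.0624), and 0.58 ± 0.20 in MIAPACA2 (adjusted p = 0.0826). It passed as higher in 5 of 9 alternatives in BXPC3 (DESeq2 0.0247, the covariate 0.00151) and in 4 of 9 in MIAPACA2 (DESeq2 0.0461, the covariate 0.00058). The response of PVT1 differed between the lines (F test, adjusted p = 0.00332), by −1.20 ± 0.27 between PSN1 and BXPC3 (adjusted p = 0.00703) and by −1.27 ± 0.27 between PSN1 and MIAPACA2 (adjusted p = 0.00364). That of CASC11 differed as well (adjusted p = 0.0052), with counts of at most 9 outside PSN1, and that of POU5F1B was not called (adjusted p = 0.128).

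**Figure D3:**
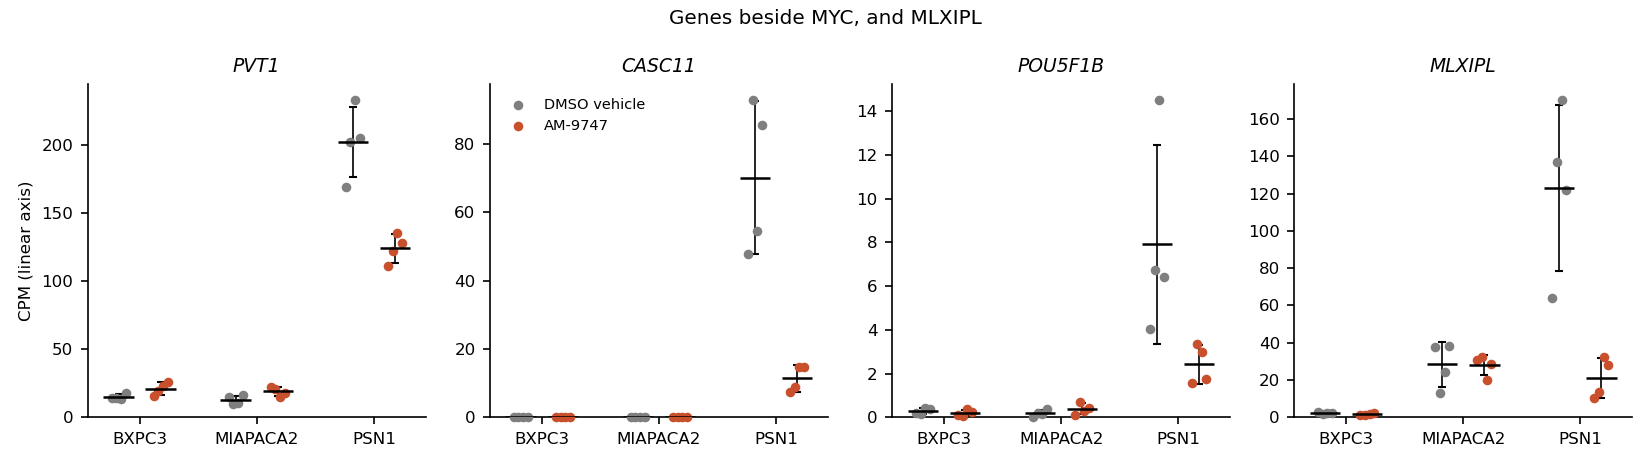
Levels (CPM, linear axes) of PVT1, CASC11 and POU5F1B, which lie beside MYC, and of MLXIPL in each line, with points for libraries and black lines for group means ± SD (n = 4). In PSN1 the vehicle and AM-9747 libraries of all 4 genes do not overlap.

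MYCL fell in BXPC3, the line where it was abundant, from 18.2, 18.3, 19.4 and 14.5 CPM to 14.1, 11.1, 9.57 and 9.27, with no overlap (log2 −0.67 ± 0.17, adjusted p = 0.0129). The call held without each library in turn, and was lost when BXPC3 was fitted jointly with the other lines (adjusted p = 0.452). In MIAPACA2 it stayed between 0.897 and 2.4 CPM and in PSN1 at or under 2.18 CPM, and neither passed (adjusted p = 0.457 and 0.604). MYCN had at most 27 counts in any library, so no fold is given, although its mean response was called (adjusted p = 0.0367).

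MAX, without which MYC, MXD proteins and MNT do not bind E-boxes well, rose in BXPC3. Its vehicle libraries were at 50, 53.1, 54.3 and 57.3 CPM and its AM-9747 libraries at 79.6, 79.8, 98.3 and 102, all above vehicle, a 1.68-fold rise (log2 0.75 ± 0.13, adjusted p = 0.00215). In MIAPACA2 the values were 34.9, 35.6, 34.1 and 33.5 against 33.5, 34.6, 30.6 and 34.6 CPM (−0.03 ± 0.11, adjusted p = 0.905). In PSN1 the groups did not overlap, at 60.4, 43.0, 35.3 and 59.8 against 70.6, 66.4, 66.3 and 75.5 CPM, and the change of 0.45 ± 0.22 did not pass (adjusted p = 0.213). The mean response of 0.39 ± 0.09 was called (adjusted p = 0.00219) in every alternative and without each library in turn.

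By the F test over the 3 lines, 1 of 10 members, MAX, had a called difference of the response (adjusted p = 0.0423), against 12.1% of all genes. Between MIAPACA2 and BXPC3 the responses differed by −0.80 ± 0.22, which did not pass on its own (adjusted p = 0.0599; 0.00197 with DESeq2). The F test lost its call with library totals (adjusted p = 0.12), with no filter on low counts (0.158) and without any of 19 of the 24 libraries (0.0506 to 0.0889). It held without BXPC3 vehicle replicate 4, BXPC3 AM-9747 replicate 1 or PSN1 vehicle replicate 1, 2 or 3, and with the mitochondrial covariate (0.0297).

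MXD1 rose with MAX in BXPC3, from 58.4, 58.8, 48.6 and 35.3 CPM to 96.6, 82.0, 76.0 and 69.9, with no overlap and a 1.62-fold change (log2 0.69 ± 0.18, adjusted p = 0.0154). In PSN1 it went from 28.3, 22.2, 20.3 and 28.2 to 42.4, 38.8, 44.6 and 29.5 CPM, again with no overlap, and did not pass (0.61 ± 0.22, adjusted p = 0.106). MIAPACA2 showed no difference, with 10.6 to 13 CPM in vehicle and 10.8 to 13.1 with AM-9747 (0.02 ± 0.14, adjusted p = 0.938). The mean response of 0.44 ± 0.10 was called (adjusted p = 0.00274) in every alternative and without each library in turn, and a difference between lines was not (adjusted p = 0.0982). For MXD1 and MAX alike the treated libraries lay above vehicle in BXPC3, where both were called, and in PSN1, where neither passed. They overlapped vehicle in MIAPACA2, the line with the least MXD1 RNA.

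MXD4 fell in MIAPACA2, from 47.2, 61.9, 58.3 and 48.6 CPM to 29.1, 26.3, 35.0 and 28.5, with no overlap and a 1.78-fold change (log2 −0.83 ± 0.14, adjusted p = 0.00344). In PSN1 the values were 44.8, 39.9, 49.5 and 52.2 against 43.0, 28.1, 34.8 and 25.1 CPM, which overlapped (−0.56 ± 0.23, adjusted p = 0.14). In BXPC3, where MXD4 was lowest, they were 22.1, 19.9, 21.7 and 25.1 against 22.3, 23.0, 18.3 and 16.7 CPM (−0.14 ± 0.14, adjusted p = 0.486). The mean response of −0.50 ± 0.10 had the smallest adjusted p among the members (0.000685) and was called in every alternative and without each library in turn. MXD4 and MYC, an antagonist and the activator, therefore both fell in MIAPACA2.

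The other antagonists were not called in any line. MXI1 was at 6.48, 8.58, 7.78 and 5.93 CPM in MIAPACA2 vehicle and at 11.9, 9.82, 8.14 and 8.78 with AM-9747 (log2 0.45 ± 0.19, adjusted p = 0.132), and its responses in BXPC3 and PSN1 were −0.14 and −0.17. MNT was at 44.9, 36.5, 35.6 and 28.7 CPM in BXPC3 vehicle and at 33.5, 29.9, 22 and 20.7 with AM-9747 (−0.46 ± 0.19, adjusted p = 0.0974). That of MNT passed with limma voom (−0.62, adjusted p = 0.00294), the mitochondrial covariate (0.00343) and the replicate block (0.00876), and without BXPC3 vehicle replicate 4 (0.0334) or AM-9747 replicate 1 (0.0479). MXD3 varied widely between replicates, with 5.87, 17.4, 26.5 and 20.3 CPM in PSN1 vehicle and 5.26, 7.99, 13.8 and 12.3 with AM-9747 (−0.89 ± 0.47, adjusted p = 0.242). Without PSN1 vehicle replicate 1, its lowest vehicle library, MXD3 was at −1.18 and passed (adjusted p = 0.037).

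MLXIP, the glucose-sensing partner of MLX, rose in BXPC3 from 149, 142, 138 and 132 CPM to 215, 203, 196 and 211, with no overlap (1.47-fold, log2 0.56 ± 0.10, adjusted p = 0.00233). The joint fit of the lines gave an adjusted p of 0.057. It was at 48.4 to 49.8 CPM in MIAPACA2 vehicle and 48.6 to 65.8 with AM-9747 (0.21 ± 0.12, adjusted p = 0.269), and in PSN1 at 62.8, 109, 133 and 109 against 71.7, 74.6, 118 and 103 CPM (−0.22 ± 0.28, adjusted p = 0.644). MLX was at 57.2, 42.3, 39.8 and 47.5 CPM in PSN1 vehicle and at 67.9, 69.6, 84.6 and 82.3 with AM-9747, with no overlap, and did not pass (0.67 ± 0.20, adjusted p = 0.0578). It passed there with DESeq2 (adjusted p = 0.00928), median-of-ratio factors (0.0491), library totals (0.98, adjusted p = 0.0306), voom weights (0.0143), the replicate block (0.0461) and the joint fit (0.00128, a fit that made more false calls in PSN1 on simulated data than the fit of the line alone), and without PSN1 vehicle replicate 1 (0.75, adjusted p = 0.0236). Its responses in PSN1 and MIAPACA2 differed by 0.66 ± 0.21 (adjusted p = 0.0438), while the F test over the 3 lines did not pass (adjusted p = 0.079). That pairwise call was lost without any 1 of 12 libraries (adjusted p up to 0.0984), with median-of-ratio factors (0.0662), no filter (0.151), the 5 CPM filter (0.42, adjusted p = 0.107) and the mitochondrial covariate (0.0698). The mean response of MLX, 0.34 ± 0.09, was called (adjusted p = 0.00451) in every alternative and without each library in turn, while that of MLXIP was not (0.19 ± 0.11, adjusted p = 0.22) except with library totals (0.35, adjusted p = 0.0102) or the mitochondrial covariate (0.31, adjusted p = 0.00595).

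MLXIPL had a larger change in PSN1 than any of the 10 genes in any line. It went from 63.8, 137, 170 and 122 CPM in vehicle to 10.5, 13.4, 32.2 and 28.2 with AM-9747, a 6.05-fold fall with no overlap (log2 −2.60 ± 0.44, adjusted p = 0.00613). In MIAPACA2 the values were 37.9, 13.2, 24.6 and 38.4 against 30.7, 32.3, 20.2 and 28.4 CPM (−0.01, adjusted p = 0.988). Its responses were not alike in the lines (F test of the difference, adjusted p = 0.0039), by −2.52 ± 0.50 between PSN1 and MIAPACA2 (adjusted p = 0.00254) and −2.05 ± 0.52 between PSN1 and BXPC3 (adjusted p = 0.0181; 0.0558 without BXPC3 AM-9747 replicate 4). In PSN1 MLXIPL thus fell, while all treated libraries lay above vehicle for its partner MLX, whose change did not pass in the main fit. MGA, the large MAX partner of the repressive PRC1.6 complex, was at 49.3, 60.6, 33.9 and 49.1 CPM in PSN1 vehicle and at 69.5, 79.0, 80.4 and 72.4 with AM-9747, with no overlap and no call (0.60 ± 0.22, adjusted p = 0.108; voom 0.0343). Its mean response was called (0.43 ± 0.12, adjusted p = 0.00982).

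**Figure D4:**
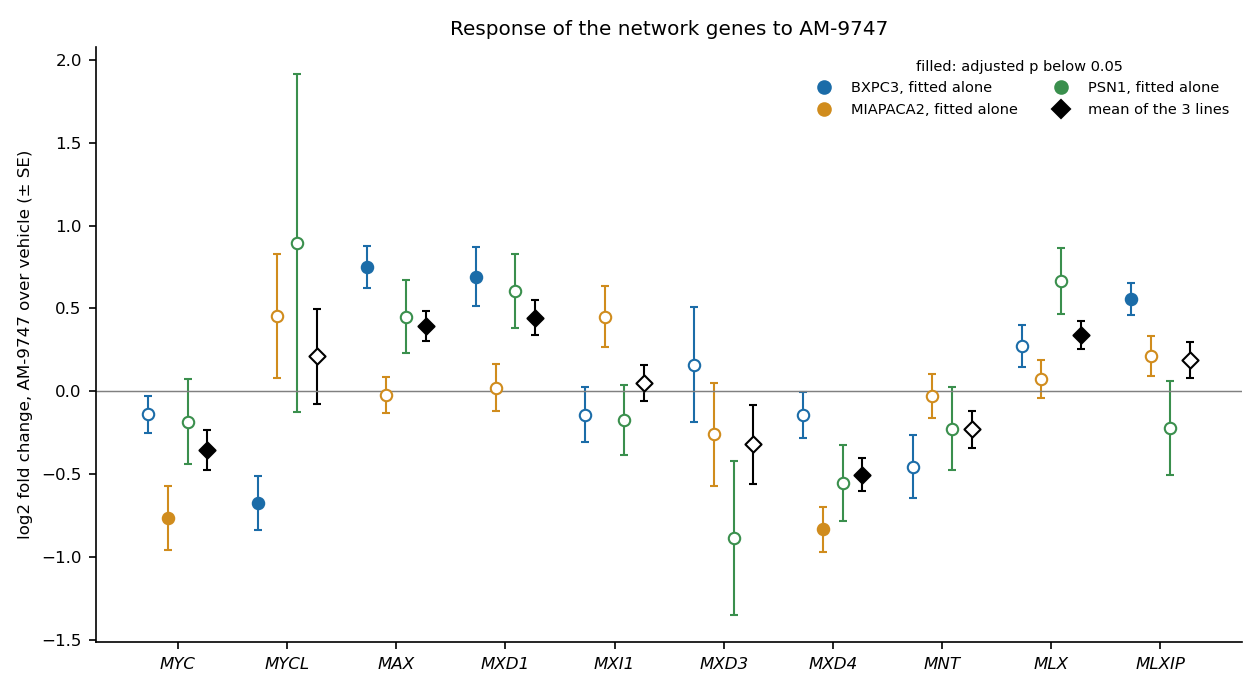
Response to AM-9747 of each network gene (log2 fold change against vehicle, bars for the standard error) in each line fitted alone with edgeR (circles) and as the mean of the 3 lines (diamonds), with filled symbols for adjusted p under 0.05. MAX, MXD1 and MLXIP are called above 0 and MYCL below 0 in BXPC3, MYC and MXD4 are called below 0 in MIAPACA2, and no PSN1 circle is filled.

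Set against each other per kilobase of exon, MYC was 2.82 ± 0.462 times the summed RNA of MXD1, MXI1, MXD3, MXD4 and MNT in BXPC3 vehicle and 2.23 ± 0.127 times with AM-9747 (SD, n = 4). The ratio was 2.69 ± 0.415 and 2.01 ± 0.681 in MIAPACA2 and, for PSN1, 5.71 ± 0.967 and 5.68 ± 1.58. The PSN1 means of the ratio differed by far less than their SD. The summed antagonists were at 21.8 ± 2.94 CPM per kilobase in BXPC3 vehicle and 24.7 ± 3.43 with AM-9747, while the makeup of the sum shifted: MXD1 gave 36 ± 3.44% of it in BXPC3 vehicle and 51.7 ± 1.22% with AM-9747, and 18.8 ± 3.16% and 32.2 ± 2.86% in PSN1. In MIAPACA2 the share of MXD4 was 43.6 ± 4.56% and 30.8 ± 6.26%. These ratios and shares depend on the annotated exon lengths, are descriptions and were not tested.

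The genes the network works with were taken from lists, of which up to 2 called genes per list and line are named. Every list count from here on stands beside the share of all genes called. That share was 29.1% in BXPC3 (13.1% higher and 16% lower), 13.6% in MIAPACA2 (6.74% and 6.83%) and 10.7% in PSN1 (4.51% and 6.18%). A count near that share is not read as a response of the list. Of 15 cofactors of MYC, 3 rose and 1 fell in BXPC3, 1 rose and 1 fell in MIAPACA2, and 1 rose and 1 fell in PSN1. CDK9, the elongation kinase, went from 77.6 ± 14.2 down to 34.5 ± 4.64 CPM in BXPC3 (log2 −1.16, adjusted p = 0.000724) and in MIAPACA2 from 58.9 ± 5.55 to 37.3 ± 5.26 (−0.64, adjusted p = 0.0129). HCFC1, a chromatin adaptor that binds MYC, rose in BXPC3 (0.89, adjusted p = 0.0102) and in PSN1 (1.13, adjusted p = 0.027). The PSN1 call of HCFC1 was lost without any 1 of 4 of the 8 libraries (adjusted p up to 0.0693). KAT2A, the acetyltransferase also known as GCN5, fell in PSN1 from 512 ± 155 to 169 ± 33.7 CPM (−1.66, adjusted p = 0.0082). In MIAPACA2 EP400, a chromatin remodeller, rose by 0.40 (adjusted p = 0.0439), a call lost without any 1 of 6 of the 8 libraries (adjusted p up to 0.141), with no filter (0.118), with the replicate block (0.0704) and in the joint fit (0.365).

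Of 10 corepressors used by the MXD proteins and MNT, 1 rose and 2 fell in BXPC3, 1 rose in MIAPACA2, and 0 were called in PSN1 by edgeR. SIN3B, a scaffold that MXD proteins bind, rose from 59.4 ± 2.74 to 118 ± 21.4 CPM in BXPC3 (log2 1.00, adjusted p = 0.00101) and from 58.0 ± 7.32 to 123 ± 31.0 in MIAPACA2 (1.11, adjusted p = 0.00364). SUDS3, another subunit of that complex, fell in BXPC3 (−0.47, adjusted p = 0.0112; 0.13 in the joint fit). Of 14 genes that set the stability of MYC protein, 3 rose and 1 fell in BXPC3, 1 rose and 1 fell in MIAPACA2, and 2 rose in PSN1. USP36, a nucleolar deubiquitinase of MYC, rose in BXPC3 (41.6 ± 3.71 to 81.8 ± 3.67 CPM, adjusted p = 0.000285) and MIAPACA2 (59.2 ± 3.99 to 91.7 ± 5.78, adjusted p = 0.00317). AURKA, a mitotic kinase known to shield MYCN protein from degradation, rose in BXPC3 from 131 ± 5.24 to 237 ± 11.4 CPM (adjusted p = 0.000252) and in PSN1 from 44.3 ± 13.6 to 215 ± 27.6 (log2 2.24, adjusted p = 0.00115). CIP2A, an inhibitor of the phosphatase that acts on MYC, rose in PSN1 from 5.18 ± 3.24 to 16.1 ± 4.77 CPM (adjusted p = 0.0335), and lost the call without any 1 of 6 libraries (up to 0.1) and with the mitochondrial covariate (0.0619). MYC protein was not measured.

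Of 66 genes listed as activated by MYC, 7 rose and 13 fell in BXPC3, 3 rose and 11 fell in MIAPACA2, and 7 rose and 5 fell among 65 tested in PSN1. Of all genes, 29.1%, 13.6% and 10.7% were called in the main fit. The BXPC3 total was thus near its background there and those of the other lines above theirs. That background holds many genes of low count. With the 5 CPM filter, 2188 of 11273 genes were called in MIAPACA2 and 2209 of 11358 in PSN1, larger shares than in the main fit. The totals are therefore not read as a response of the list. Median log2 changes of the list were 0.04, −0.25 and 0.36 beside 0.00, 0.00 and 0.04 over all genes. The groups within the list went separate ways. Of 30 genes of ribosome biogenesis, 4 rose and 0 fell in BXPC3, 1 rose and 1 fell in MIAPACA2, and 2 rose and 2 fell in PSN1. NOP2, a methyltransferase of ribosomal RNA, rose in all 3 lines. BXPC3 went from 97.8 ± 20 to 403 ± 155 CPM, MIAPACA2 from 95.6 ± 15.7 to 348 ± 64.1 and PSN1 from 135 ± 27.4 to 416 ± 125 (mean log2 1.85, adjusted p = 4.52e-09). NOP56, a box C/D ribonucleoprotein, fell in MIAPACA2 from 143 ± 4.57 to 90.5 ± 7.5 CPM (adjusted p = 0.0036). Most of this list did not pass in any line.

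Among 24 metabolic genes, 1 rose and 6 fell in BXPC3, 2 rose and 4 fell in MIAPACA2, and 1 rose and 3 fell in PSN1. The median log2 change of the list was 0.33 in PSN1, and the split of calls there depended on the fit. The replicate block called 9 higher and 4 lower, voom 7 and 5 and the joint fit 5 and 4, while DESeq2 called 2 and 4 and the mitochondrial covariate 0 and 4. SLC29A2, a nucleoside transporter, fell in every line: BXPC3 went from 25 ± 4.4 to 3.8 ± 2.12 CPM, MIAPACA2 from 22 ± 3.25 to 9.03 ± 0.968 and PSN1 from 56 ± 23.1 to 12.7 ± 5.62 (adjusted p = 0.000536, 0.00114 and 0.0104). SLC19A1, the reduced folate carrier, also fell in each line (log2 −1.35, −0.64 and −0.90; adjusted p = 0.00232, 0.0103 and 0.0384), of which only the BXPC3 value was named by the rule. SLC16A1, the lactate carrier, fell in MIAPACA2 from 249 ± 66.0 to 139 ± 18.3 CPM (adjusted p = 0.0159), a call lost without AM-9747 replicate 1, 2 or 4 (up to 0.0624), with library totals (0.0558) and in the joint fit (0.06). SLC7A5, a carrier of large neutral amino acids, fell in PSN1 from 299 ± 65.9 to 160 ± 10.7 CPM (adjusted p = 0.0173) and, chosen after its values were seen, fell in BXPC3 and rose in MIAPACA2 (−0.96 and 0.56, adjusted p = 0.000743 and 0.0235). The PSN1 call was lost with library totals (0.133) and without any 1 of 4 libraries (up to 0.0815). The F test of the difference was called for SLC7A5 (adjusted p = 0.00015).

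Of the 12 cell cycle genes, those called in the main fit mostly fell in BXPC3, all fell in MIAPACA2 and all rose in PSN1. In BXPC3 2 rose and 7 fell, in MIAPACA2 0 rose and 6 fell, and in PSN1 4 of 11 tested rose and 0 fell, with median log2 changes of −0.50, −0.59 and 0.82. Of all genes, 29.1%, 13.6% and 10.7% were called in these lines. MCM4, part of the replicative helicase, fell from 129 ± 9.87 to 53.6 ± 5.78 CPM in BXPC3 (adjusted p = 8.64e-05) and in MIAPACA2 from 102 ± 28.0 to 37.6 ± 8.83 (adjusted p = 0.00235). In PSN1 it started lower, at 17.8 ± 4.92 CPM, and rose to 34.9 ± 5.7 (adjusted p = 0.0395; this value was chosen after it was seen). CKS2, a cyclin-dependent kinase subunit, rose in PSN1 from 29.4 ± 17.5 to 112 ± 15.6 CPM and CDC25A, the phosphatase that activates those kinases, from 8.52 ± 2.0 to 23.7 ± 4.19 (adjusted p = 0.0105 and 0.00893). The responses of MCM4 (F test, adjusted p = 1.57e-05), CDC25A (3.1e-05) and CKS2 (0.00658) differed between the lines. CCND2, a D-type cyclin, rose in BXPC3 from 2.72 ± 0.998 to 13.2 ± 1.54 CPM, and E2F2 fell in MIAPACA2 from 10.5 ± 2.4 to 3.83 ± 1.3 (adjusted p = 0.000324 and 0.00653; E2F2 0.124 in the joint fit). In PSN1 the mitochondrial share was lower with AM-9747. With that share as a covariate 3 of these genes were called higher and 0 lower there. Without each single library 2 to 5 were higher and 0 to 1 lower. Voom called 5 higher and 2 lower in PSN1, and the joint fit 6 and 1. In MIAPACA2, DESeq2 called 2 higher and 7 lower, voom and the covariate each 2 and 8, and the joint fit 2 and 5.

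**Figure D5:**
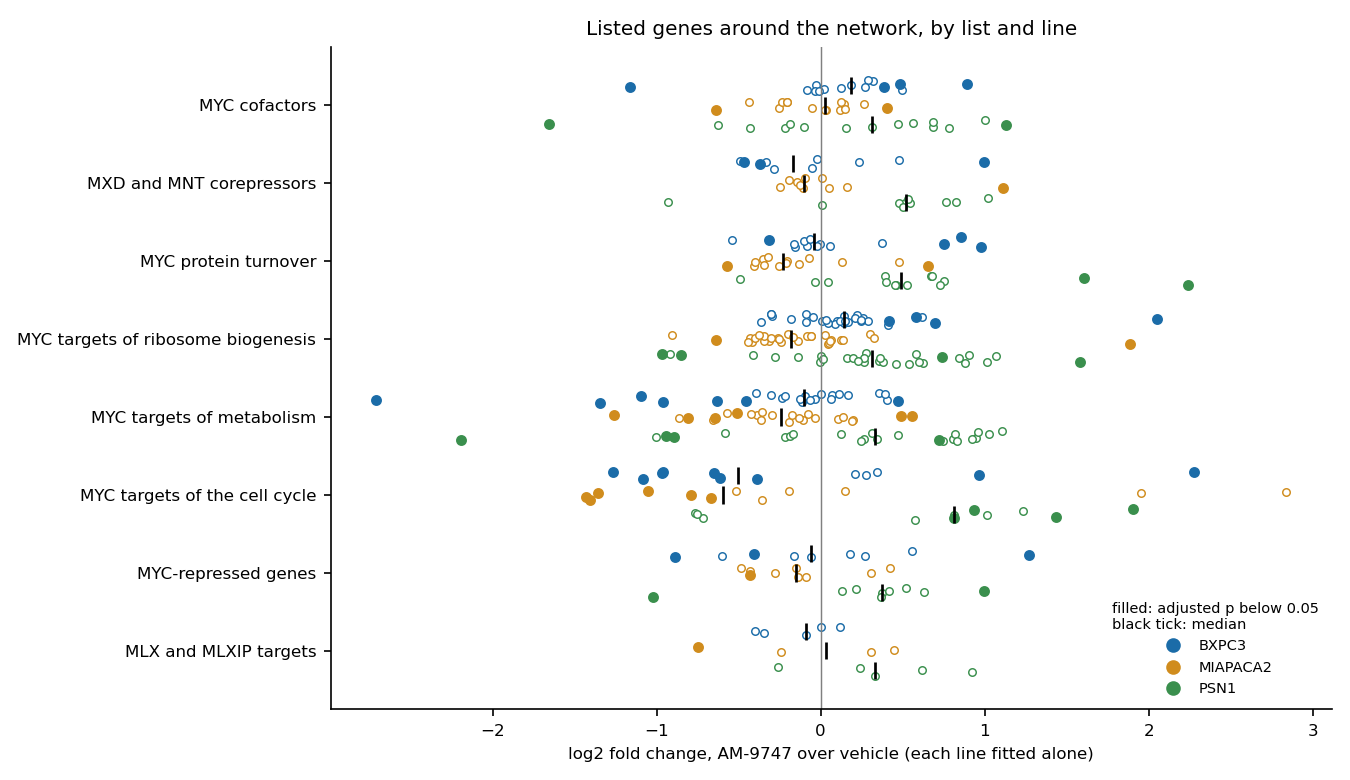
Response to AM-9747 (log2 fold change, each line fitted alone) of every listed gene tested, by list and line, with filled points for adjusted p under 0.05 and black ticks for medians. The cell cycle genes lie mostly below 0 in BXPC3 and MIAPACA2 and mostly above 0 in PSN1, while NOP2 is the rightmost ribosome gene in each line.

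Of 10 genes known as repressed by MYC, 9 were tested in each line, and few were called: 1 higher and 2 lower in BXPC3, 0 and 1 in MIAPACA2, 1 and 1 in PSN1. CDKN2C, a CDK4 and CDK6 inhibitor, fell in BXPC3, from 11.1 ± 2.38 to 5.94 ± 0.778 CPM (adjusted p = 0.00578) and in MIAPACA2 from 48.0 ± 1.66 to 35.0 ± 1.54 (adjusted p = 0.023). CDKN2B, a relative of it, fell in PSN1 from 168 ± 39.9 to 85.2 ± 5.26 CPM (adjusted p = 0.0173), while CCND1 rose from 73.4 ± 17.5 to 151 ± 47.9 (adjusted p = 0.0313). Of 5 genes known to answer to MLX with MLXIP, KLF10, which encodes a zinc finger repressor, fell in MIAPACA2 from 38.6 ± 6.62 to 22.5 ± 6.49 CPM (adjusted p = 0.0337), and no other was called in any line by edgeR. Leaving out 1 library at a time, the KLF10 call was lost for 6 of 8 libraries (adjusted p up to 0.1), CCND1 for 5 (0.102), CDKN2B for 5 (0.0716) and CDKN2C in MIAPACA2 for 4 (0.0787). The CDKN2C call was also lost in the joint fit in both lines (0.274 in BXPC3 and 0.712 in MIAPACA2), and in MIAPACA2 with library totals (−0.28, adjusted p = 0.118), no filter (0.0578) and the replicate block (0.0677). KLF10 lost its call with library totals (0.108) and in the joint fit (0.317), CDKN2B with library totals (0.115) and CCND1 with the mitochondrial covariate (0.64, adjusted p = 0.0997).

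The genes with a pattern most like that of a member over the 24 libraries were taken by Pearson correlation of log2 CPM among 11212 protein-coding genes. The libraries share lines and treatments, so these values describe the 6 groups as much as single libraries. For MYC they were PELO (0.932), PHC2 (0.928) and DYRK2 (0.922). For MXD4 they were MGAT4B (0.945), HIVEP3 (0.93) and PCDHGC3 (0.929), and for MXD1 MAP3K9 (0.973), PPP4R3A (0.969) and LRIG1 (0.966).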

How the data were processed

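Gene expression was measured by poly(A) RNA sequencing in 24 libraries. Per the submitters' processing notes, reads were handled with fastp 0.19.8, HISAT2 2.2.0, GRCh38, R 4.0.2 and DESeq2 1.34.0, and for the counter and annotation no name is given in the sources used here. The values the authors deposited are raw counts per gene for 60366 entries, of which 56189 matched GENCODE 29. Groups come from the labels. The counts were fitted in R 4.3.3 with edgeR 4.0.16 (quasi-likelihood, robust, TMM, filterByExpr by group) and limma 3.58.1, read with data.table (version 1.17.8). Each line was fitted alone for its response, and the 6 groups jointly for the mean response, the difference between lines and the vehicle comparisons. P-values were adjusted by Benjamini-Hochberg over all genes of a comparison, with calls at 0.05. CPM uses TMM-scaled totals, and CPM per kilobase divides by the union of GENCODE 29 exons. A prior count of 2 was used for log2 CPM in the correlations.

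The members and lists were chosen with earlier results of these data known. Named are the 10 members, MYCN, MGA, MLXIPL and the neighbours of MYC, and per list and line up to 2 called genes with the largest change and at least 5 CPM. The 3 most like genes are given for MYC and the 2 members with the largest mean response among the others. Alternatives were DESeq2 1.42.0, median-of-ratio factors, library totals, no filter, a 5 CPM filter, voom with quality weights, a mitochondrial covariate, a replicate block, a joint fit and leaving out each library. The procedure was tested on simulated data, where the joint fit made more false calls than the nominal rate for the mean response and many more in PSN1. Of its calls, 11.6% were false for the mean response, 17.1% for the MIAPACA2 response and 64.2% for the PSN1 response. The fit of PSN1 alone had 8.16% false calls. Such shares depend on how many genes change, and only 200 were changed there. They need not hold in the real data, where the joint fit called 5749 genes in PSN1. Because of these simulated calls and the unlike spread of the lines, responses of single lines rest on the fit of each line alone. The mean, the difference between lines and the vehicle comparisons still rest on the joint fit. Neither the difference nor the vehicle comparisons were simulated, so their rate of false calls is not known. No 2 replicates were the same library: the lowest chi-square per gene between replicates was 7.139. A count of 0 allows up to 3 counts at 95% confidence, for counting error only. Promoter windows on chromosome 8 were not used.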

Additional observations from a re-analysis of the deposited data

Results flagged for a closer look

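The response to AM-9747 differed between the lines, by the edgeR F test of the difference, for MAX (adjusted p = 0.0423), MLXIPL (0.0039), PVT1 (0.00332) and CASC11 (0.0052). That test comes from the joint fit, whose PSN1 responses were often falsely called on simulated data, and the test itself was not simulated. MAX rose in BXPC3 (log2 0.75) and stood at −0.03 in MIAPACA2, and MLXIPL, PVT1 and CASC11 fell in PSN1. Single libraries far from the other 3 of their group were MIAPACA2 vehicle replicate 2 for MGA, at 53.3 CPM beside 36.9, 37.6 and 38.4, and BXPC3 vehicle replicate 4 for PVT1, at 18 CPM beside 13.7, 14.2 and 14.3. These are 2 of 86 groups looked at, and chance flags about 1 in 20 groups.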

How the results depend on the processing

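Of 2347 recomputed values of the members, 2206 kept their side of the threshold, 81 lost a call and 60 gained one. Among values called in the main fit or in the alternative, 0 reversed direction. A change of sign in a value called in neither was not counted, and the F tests have no direction. The causes of the changes below were not tested. In BXPC3, where 5134 genes and 4 members were called, limma voom called 9598 genes, the mitochondrial covariate 8030 and the joint fit 2405 with 2 members. In MIAPACA2, with 2454 genes and 2 members, DESeq2 called 3708, voom 5192, the covariate 6502 and the joint fit 1155, and library totals called 1 member. In PSN1, with 1955 genes and 0 members, DESeq2 called 3653 genes and 1 member, voom 5485 and 2, the replicate block 3559 and 1, and the joint fit 5749 and 4 (MAX, MLX, MXD1 and MXD4, in the fit whose PSN1 calls were often false on simulated data), while median-of-ratio factors and library totals each called 1 member. For the difference between lines, with 2760 genes and 1 member, DESeq2 called 4871 and 3, voom 9249 and 8, no filter 0 members and the 5 CPM filter 2 members. For vehicle lines, the 5 CPM filter tested 12058 genes instead of 22883. It called 7421 genes instead of 11508 (MIAPACA2 and BXPC3), 8874 instead of 14280 (PSN1 and BXPC3) and 8053 instead of 12442 (PSN1 and MIAPACA2). The share of tested genes called was larger with that filter in all these comparisons. The covariate called 7813 genes and 5 members instead of 8 for PSN1 and BXPC3.

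Leaving out each library in turn gave 3661 to 6749 genes and 4 to 5 members in BXPC3, 1142 to 3272 and 1 to 2 in MIAPACA2 (lowest without AM-9747 replicate 1), and 556 to 4427 and 0 to 2 in PSN1 (lowest without AM-9747 replicate 2, highest without vehicle replicate 1). The mean response had 4756 to 6699 genes and 4 to 6 members, and the difference between lines 1988 to 6121 and 0 to 3 (highest without PSN1 vehicle replicate 1). Vehicle comparisons had 10468 to 11334 genes and 8 to 9 members (MIAPACA2 and BXPC3), 13349 to 15200 and 6 to 8 (PSN1 and BXPC3), and 11371 to 13455 and 6 to 6 (PSN1 and MIAPACA2).

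Library totals in place of TMM moved the split of higher and lower calls to 1911 and 633 from 1219 and 1235 in MIAPACA2, to 1202 and 542 from 825 and 1130 in PSN1, to 4261 and 1575 from 2867 and 2446 for the mean, and to 4960 and 7798 from 6206 and 6236 for vehicle PSN1 against MIAPACA2. The median log2 change of all genes was then 0.15 in MIAPACA2, 0.37 in PSN1 and 0.24 for the mean. Same-numbered libraries correlated at −0.19 to 0.42, not above 0.1 in every pair of any line, so the numbers were not taken to pair the samples, and with the replicate block MLX passed in PSN1 (adjusted p = 0.0461). The spread of PSN1 and 4 libraries a group limit what could be detected. In simulated data with 200 changed genes, the PSN1 fit alone found 1.49% of 1.5-fold, 1.52% of 2-fold and 66.2% of 4-fold changes. The BXPC3 fit found 6.06%, 49.2% and 92.4%, and the MIAPACA2 fit 9.38%, 65.6% and 93.7%. The real fits called many more than 200 genes, with a less strict cut-off on raw p-values. The simulated rates may therefore be too low for them. A member that did not pass may still have changed by such small folds.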
